A study of Mus musculus with 4 samples.

Results

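The 5' untranslated region (5' UTR) is the stretch of a messenger RNA between its start site and the start codon. Allele counts were examined at 3246 single nucleotide polymorphisms (SNPs) that the deposited tables class as 5' UTR, list in an exon of chromosomes 1 to 19 and give with different bases for the 2 parental strains. A SNP was counted in each gene it was listed in, so that the 3246 lay at 3215 positions, 31 of which were listed in a pair of genes and had their 2457 reads counted in both. They lay in 1949 genes and made up 6.38% of the 50905 exonic SNPs chosen in the same way without regard to class, out of 311375 SNPs listed in all. The rule used only position, class and listed bases, and no read count. The question addressed was whether the reads of a 5' UTR fall to the C57BL/6J (B) and the DBA/2J (D) allele as those of the remaining exonic SNPs of the same gene do.

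RNA came from the gonadal fat pad of chow-fed F1 mice of reciprocal B by D crosses, sequenced in 4 pools, so that every animal carried 1 allele of each strain and no group was homozygous. The labels name the pools BxD female, BxD male and DxB male, each of 3 animals, and DxB female, of 2 animals, with the mother's strain first. The labels give an age of 8 weeks, whereas the study's methods give an older age. Each combination of cross and sex was a single pool of RNA, so animals within a group could not be compared. The p-values of the fits use a spread between pools that is estimated in part across all SNPs or genes. The main fits treat the 2 alleles of a pool as separate libraries.

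The identity of a pair of pools was in conflict. For the pools labelled DxB female and labelled BxD male, the file names give the other sex and the other cross. At 106 exonic SNPs of the X chromosome the D allele took 46.4% of reads in the pool labelled BxD female, 0.993% in the one labelled DxB female, 43.3% in the one labelled BxD male and 84.5% in the one labelled DxB male. The share of under 1% in a pool labelled female, and the near-even share in a pool labelled male, go against those 2 labels. Comparisons of the D with the B allele do not use cross or sex and are the same under either identity. Values per pool are given below in the order labelled BxD female, labelled DxB female, labelled BxD male and labelled DxB male.

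In cap-dependent translation the small ribosomal subunit binds near the capped 5' end and scans the 5' UTR until it meets a start codon. An ATG upstream of the main start codon can open an upstream reading frame, which usually lowers translation of the main one and which Atf4, a transcription factor of the stress response, uses to rise when initiation is limited. Other known 5' UTR elements are the iron responsive element of ferroportin and ferritin messages and the terminal oligopyrimidine tract of ribosomal protein messages. Allele counts in poly-A RNA measure the amount of each allele's RNA that covers a SNP, and not its translation. First exons often begin in GC-rich promoter sequence and can differ between transcripts of a gene.

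The following stretches of mm9 show 5' UTR SNPs on which the results below turn, each in the direction of transcription with the SNP in capitals. The B run is the reference sequence, which carried the listed B base at all 3246 SNPs, and the D run is the same stretch with the listed D base put in. Glul and Lpl held the most deeply read SNPs, at chr1:155747105-155747133 and chr8:71404490-71404518 on the plus strand. Ivns1abp, at chr1:153191750-153191778 on the plus strand, and Tardbp, at chr4:148000813-148000841 on the minus strand, each held a SNP read almost only from B and one read from both alleles. Hjurp, at chr1:90174036-90174064 on the minus strand, held a SNP read mostly from D.
Glul B: tctgaacagcacgcTcacccatctcctct
Glul D: tctgaacagcacgcAcacccatctcctct
Lpl B: aggaattctgccccTtgtaactgttctgc
Lpl D: aggaattctgccccCtgtaactgttctgc
Ivns1abp B: TtcccgcgagtacccactggtcttcctcA
Ivns1abp D: CtcccgcgagtacccactggtcttcctcG
Tardbp B: AttccttcccgtctgtgcttcctccttgT
Tardbp D: GttccttcccgtctgtgcttcctccttgC
Hjurp B: ggcagagagccacgTacgccatggagtct
Hjurp D: ggcagagagccacgCacgccatggagtct

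A second set shows SNPs at which a triplet upstream of the annotated start codon is ATG in 1 allele and not in the other, with that triplet in capitals. Both alleles can hold further upstream ATGs, as in Adrb3, where one follows directly in the same frame. Adrb3 (chr8:28339660-28339688, minus strand), 2010209O12Rik (chr5:24093396-24093424, plus strand) and Lrtomt (chr7:109082284-109082312, minus strand) are shown for reads from both alleles, and Coro1c (chr5:114358667-114358695, minus strand) and Pafah1b1 (chr11:74537790-74537818, minus strand) for a low D share. In H2-T22 (chr17:36179535-36179563, minus strand) and Ring1 (chr17:34161310-34161338, minus strand) the upstream frame of the D allele runs into the coding region.
Adrb3 B: catcccaagctacACGatgccatgtcaaa
Adrb3 D: catcccaagctacATGatgccatgtcaaa
2010209O12Rik B: ggatagcttcagcATGgcacagggtgtct
2010209O12Rik D: ggatagcttcagcAGGgcacagggtgtct
Lrtomt B: taactcttcaggtaGTGagacgctgaagc
Lrtomt D: taactcttcaggtaATGagacgctgaagc
Coro1c B: ggaggcggcagcggTTGgaggcttcgcgg
Coro1c D: ggaggcggcagcggATGgaggcttcgcgg
Pafah1b1 B: ccggcggccgagATAgcgagtgagggagc
Pafah1b1 D: ccggcggccgagATGgcgagtgagggagc
H2-T22 B: caacataaaacagAGGatcagtttgggac
H2-T22 D: caacataaaacagATGatcagtttgggac
Ring1 B: gagggggagggtctGTGccccgtcaccat
Ring1 D: gagggggagggtctATGccccgtcaccat

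The 5' UTR SNPs held 618030 reads over the 4 pools, or 3.46% of the reads at exonic SNPs, of which 355339 carried the B and 262691 the D base. Between 133142 and 166914 reads fell on them per pool, out of 3760018 to 4810331 exonic reads. The median SNP had 40 reads, with quartiles of 9 and 144, against 60 at the other exonic SNPs. At least 20 reads were found at 2032 of the 3246 SNPs, at least 100 at 1029 and at least 1000 at 92, and 1 had no read. In 2440 all pools had a read. One SNP was listed in 1268 genes, a pair in 406 genes and 3 or more in 275 genes.

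When placed on the GENCODE M1 gene models of the same build, 3030 of the 3246 SNPs lay in an annotated 5' UTR exon, 84 in a coding exon, 55 in a non-coding exon, 28 in a 3' UTR, 1 in an intron and 41 outside any annotated transcript, and 7 lay in a 5' UTR whose start codon was not annotated. The 21 SNPs of AC139758.3, the gene with the most, were all in coding exons of that annotation. The SNPs in annotated 5' UTRs lay a median of 132.5 bases from a transcript start and 111 bases from the start codon, in UTRs of a median of 292 bases. Genes of both strands covered 160 SNPs, and no strand is kept in the counts, so those reads cannot be assigned to 1 gene. Shared reads with near-identical copies are likewise possible for the class I H2 genes, Hbb-b1, Gbp2, Klra13, Hspa8 and the ribosomal protein genes, whose values are therefore uncertain.

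More reads carried the B base at 5' UTR SNPs than at the other exonic SNPs. The B share of the summed reads at 5' UTR SNPs was 57.3, 57.4, 57.6 and 57.8% in the 4 pools, and at the other exonic SNPs it was 54.1, 53.6, 54.9 and 53.9%. The mean difference was 3.38 percentage points ± 0.591 (SD, n = 4 pools), and it lay between 2.64 and 3.90. In the exact paired permutation test, in which the sign of each pool's difference is turned in all 16 ways, 2 patterns gave a mean as far from 0, the smallest number that 4 pairs allow in a two-sided test, so p could not fall under 0.05. The B share exceeded that of 3' UTR SNPs by 4.99 points and that of synonymous SNPs by 4.73 points, and was 2.45 points below that of non-synonymous SNPs, with the same number of patterns for each. Without SNPs at which under 1% of reads came from one of the alleles, the excess over the other exonic SNPs was 0.151 points ± 0.458 (SD, n = 4, exact p = 0.625). By the same removal the excess became 0.456 points ± 0.332 over 3' UTR and 0.716 ± 0.942 over synonymous SNPs (SD, n = 4, exact p = 0.25 for each), while the gap to non-synonymous SNPs remained at -1.82 points ± 0.313 (SD, n = 4), with 2 of 16 patterns as extreme. As a median over SNPs with at least 20 reads, that last difference turned to 1.22 points ± 1.03 (SD, n = 4, exact p = 0.25).

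SNPs read from the B allele only were more frequent in 5' UTRs. Among the 2032 SNPs with at least 20 reads, 300 (14.8%, Wilson 95% interval 13.3 to 16.4) had under 1% D reads, in 228 genes, and 250 of these had no D read at all. The share was 4.24% (interval 4.03 to 4.47) among 32258 other exonic SNPs, 3.26% in 3' UTRs, 2.44% at synonymous and 10.1% at non-synonymous SNPs. These intervals are over SNPs and treat them as independent, although neighbouring SNPs of a gene can share reads. They do not cover that dependence or differences between pools. Mates of a pair were also counted as separate reads. By pool the share was 14.7, 16.1, 15.6 and 15.4% in 5' UTRs against 4.27, 4.36, 4.38 and 4.55% elsewhere, a difference of 11.1 points ± 0.554 (SD, n = 4), which 2 of 16 sign patterns reached in the exact test. The opposite, under 1% B reads, was seen at 7 SNPs, among them SNPs in Ctse, Prkaa2, Gtf2i, Itsn2 and Fermt2. The SNP nearest to the limit of 1% had 0.952% D reads inside it and 1.10% outside. The limit did not fall in a gap: 34 SNPs lay between 1 and 5%, against 10 from 4 to 8% and 12 from 8 to 12%. SNPs just past the limit stay in the sets without SNPs of under 1% of one allele.

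**Figure D1:**
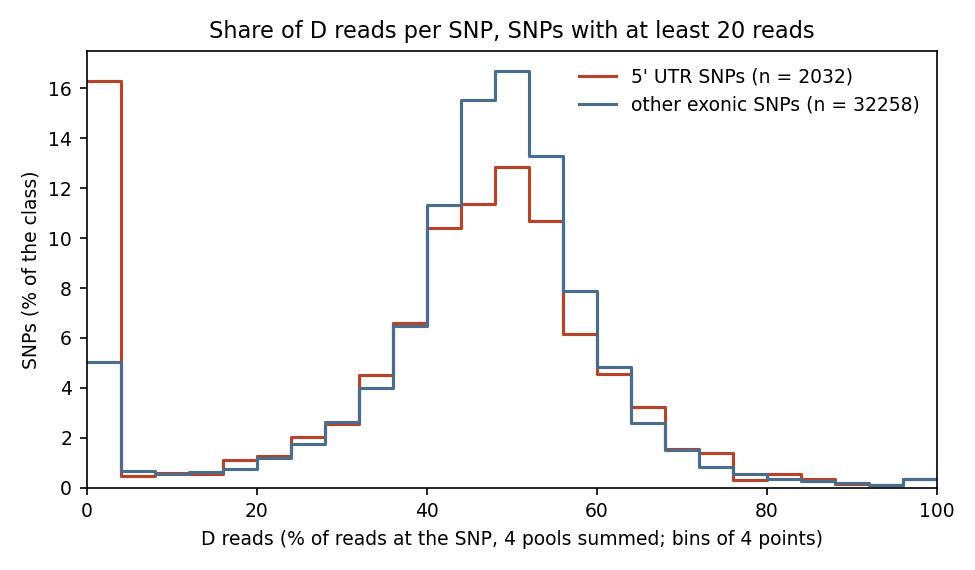
Distribution of the share of D reads per SNP (x axis, percent of the reads of the 4 pools, in bins of 4 points) as a percent of the SNPs of each class (y axis), for SNPs with at least 20 reads. The other exonic SNPs peak near even shares, with 16.7% of them from 48 to 52% D and 5.05% in the lowest bin. The tallest bin of the 5' UTR SNPs is the lowest, from 0 to 4% D, with 16.3% of them. A further peak near even shares holds 12.8% from 48 to 52% D. The median is 45.2% in 5' UTRs and 47.8% at the other exonic SNPs.

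The median D share was 45.2% (quartiles 32.1 and 53.3) at the 5' UTR SNPs with at least 20 reads and 47.8% (quartiles 40.4 and 54.1) at the others. Without SNPs of under 1% of one allele it was 47.8% (quartiles 39.9 and 54.9) at 1725 5' UTR SNPs and 48.3% (quartiles 41.7 and 54.4) at 30818 others.

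The B-only SNPs included some of the most deeply read 5' UTR SNPs. The most deeply read, in Ivns1abp, which encodes a kelch-repeat protein, had 4026 B reads and 1 D read. Others with over 1000 B reads were in H2-K1, a class I histocompatibility gene (3193 B and 5 D reads), Mgp, an inhibitor of calcification (2276 and 4), Timp2, an inhibitor of matrix metalloproteinases (1849 and 15), Pafah1b1, a regulator of dynein (1402 and 3), Hnrnpab (1379 and 7), Ptgis, prostacyclin synthase (1348 and 4), Ccni, a cyclin (1169 and 2), the kinase gene Pim3 (1031 and 3), and Tardbp, an RNA-binding protein (1029 and 0). These were chosen after their values were seen.

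The share of B-only SNPs differed with the base composition around the SNP. In the 101 bases around them, 5' UTR SNPs had a median GC content of 62.4%, against 51.5% at other exonic SNPs, and 27.7% against 2.52% had over 70% GC. Among 5' UTR SNPs the B-only share was 9.52% at up to 40% GC, 3.48% from 40 to 50%, 3.05% from 50 to 60%, 10.7% from 60 to 70% and 33.7% over 70%. For other exonic SNPs the same bins gave 5.04, 3.50, 3.08, 4.63 and 26.9%. When each pool was taken alone, the excess of 5' UTR SNPs was 6.12 points ± 2.96 (SD, n = 4) at up to 40% GC, 2.50 ± 1.32 from 40 to 50%, 8.26 ± 0.496 from 60 to 70% and 4.72 ± 1.09 over 70%, each with 2 of 16 sign patterns as extreme in the exact test. From 50 to 60% GC it was -0.392 points ± 0.628 (SD, n = 4, exact p = 0.375). These values use SNPs with at least 20 reads in the pool, and the 2 ways of counting did not give the same picture from 40 to 50% GC, where the mean over pools was 6.52% in 5' UTRs and 4.02% elsewhere but the summed reads gave 3.48 and 3.50%. Whether base composition has a part in the missing D reads was not tested.

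**Figure D2:**
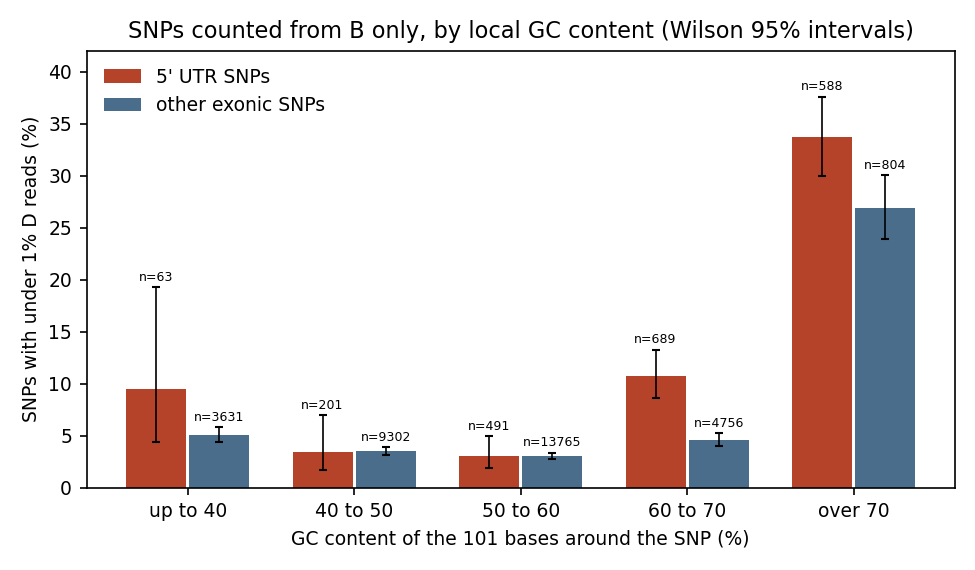
Share of SNPs with under 1% D reads (y axis, percent of SNPs with at least 20 reads) by GC content of the surrounding 101 bases (x axis, percent), for 5' UTR and other exonic SNPs, with Wilson 95% intervals as error bars. The intervals treat SNPs as independent. In both classes the share is highest over 70% GC, at 33.7 and 26.9%, and lowest from 50 to 60% GC, at 3.05 and 3.08%.

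The share also varied with the kind of base change, and less with distance from the transcript start. It was 35.3% for A to C or T to G changes from B to D (10.03% at other exonic SNPs), 22.7% for C to A or G to T (6.31%), 20.4% for C to G or G to C (7.74%), 11.5% for A to G or T to C (2.95%) and 6.81% for C to T or G to A (3.36%). In these kinds the 5' UTR share was the higher, whereas for A to T or T to A changes it was 1.83%, or 2 of 109 SNPs, against 4.72% elsewhere. By distance from the transcript start it was 16.3% at up to 50 bases, 18.7% from there to 100, 16.6% from there to 200 and 12.3% beyond 200 bases. On chromosome 18 it was 55.8%, or 24 of 43 SNPs, against 4.34% at other exonic SNPs there. Wac and 0610010O12Rik held 6 and 4 of these B-only SNPs. On the other chromosomes the 5' UTR share ran from 7% to 24.8%.

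Neighbouring SNPs covered by the same reads gave a direct look at these sites. Of 123 B-only 5' UTR SNPs with another informative SNP within 50 bases, 101 (82.1%) had a neighbour that was also B-only, and 14 had one with 25 to 75% D reads. A pair of B-only neighbours can enter this count from both sides. For 637 5' UTR SNPs that were not B-only the neighbour was B-only in 19 (2.98%). The sequences of Ivns1abp and Tardbp above show the deepest of the discordant pairs. In Ivns1abp the SNP 28 bases downstream of the B-only one had 3663 B and 3024 D reads, and every pool had at least 663 D reads there. In Tardbp the SNP at a distance of 28 bases had 613 B and 452 D reads. In Ppap2a, encoding a lipid phosphatase, the counts were 383 B and 1 D against 386 B and 322 D at 35 bases. In such pairs the alleles were both present in the RNA within the length of a read, while 1 of the SNPs had next to no D read. Allele counts cannot show whether the listed D base was present in the animals. The study sequenced DNA of D mice at a subset of B-only SNPs for that purpose, which is not used here.

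With edgeR, 651 of the 3245 5' UTR SNPs with a read (20.1%) passed an adjusted p of 0.05 for a difference between the D and B alleles, 535 with B and 116 with D higher. Over all 50891 exonic SNPs in the same fit 13.6% passed, 9.52% with B and 4.11% with D higher. The 300 B-only and the 7 D-only SNPs were all among those called. Counted from a depth of 10 reads, 368 of the 651 had under 1% of one allele. Of the remaining 283, 178 had B and 105 had D higher. When SNPs with under 1% of one allele were left out of the fit, 236 of 2877 5' UTR SNPs passed (8.20%), 147 with B and 89 with D higher, against 8.43% of all SNPs in that fit, 5% with B and 3.42% with D higher.

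The most deeply read 5' UTR SNPs were near even. In Glul, encoding glutamine synthetase, the B reads were 4794, 3274, 3637 and 2560 and the D reads 5916, 4527, 4515 and 3263 across the pools. D exceeded B in every pool, with 56.1% of all reads and a log2 D to B ratio of 0.46 (SE 0.20). The adjusted p of edgeR was 0.129, and 6.03e-30 with the pool as a block, which takes out the level of a SNP that both alleles of a pool share.

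Lpl, the lipase that releases fatty acids from lipoproteins, had B reads of 2787, 2631, 4579 and 2044 and D reads of 3889, 3321, 5018 and 2446. D was again higher in all 4 pools (54.9% of reads, log2 0.38, SE 0.22, adjusted p = 0.301 by edgeR, 5.28e-21 with the pool as a block). G0s2, an inhibitor of adipose triglyceride lipase, had 1985, 1456, 1756 and 1459 B reads and 2098, 1450, 1803 and 1624 D reads. Its pools went in both directions (adjusted p = 0.608, 0.0037 with the block).

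The remaining SNPs among the 10 most deeply read did not pass the test either, and some did so with the pool as a block. D shares were 52.5% in Akr1a4, an aldehyde reductase (p with the block 6.23e-05), 45.2% in Ivns1abp at the SNP read from both alleles (0.0238), 42.8% in Dbi, the acyl-CoA binding protein (5.56e-06), and 41.8% in S100a6, a calcium binding protein (5.63e-08). For the secreted protein gene Ccdc80 (47.4%), the actin regulator Pfn1 (49.3%) and the lipase inhibitor Angptl4 (48.4%) the adjusted p was 0.533, 0.632 and 0.946 with the block.

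Several called SNPs were read from both alleles in every pool and are named after their values were seen. Sod1, the cytosolic superoxide dismutase, had 45, 52, 31 and 36 B reads and 150, 128, 135 and 105 D reads at a SNP 11 bases before the start codon (chr16:90221092). The allele counts did not overlap between B and D (log2 1.76, SE 0.21, edgeR adjusted p = 1.93e-09). Wisp2, a secreted matricellular protein, had 293, 127, 185 and 181 B reads and 602, 341, 402 and 371 D reads, and Mmp2, a gelatinase, 220, 131, 103 and 99 B and 433, 267, 187 and 188 D reads. In both genes D was higher in all 4 pools. Mrap, which carries the ACTH receptor to the cell surface, went the other way, with 184, 232, 301 and 233 B and 81, 75, 103 and 81 D reads (log2 -1.39, SE 0.21, adjusted p = 8.27e-07). The heat shock protein gene Hspa8 had 424 B and 33 D reads. The serine protease gene Htra1 had 1451 and 18, a D share just past the limit of 1%.

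The other exonic SNPs of the same genes were tested on their own. Of 1569 genes with a 5' UTR SNP and reads at other exonic SNPs, 269 (17.1%) passed the strain test without the 5' UTR reads, 166 with B and 103 with D higher, against a background of 16.6% of all 7547 genes, 11.8% with B and 4.82% with D higher. With the pool as a block 605 of the 1569 passed (38.6%), against 31.1% of all genes. Among 231 of the called genes with reads on both sides, the 5' UTR lay on the same side as the remaining SNPs in 181. Across 1024 genes with at least 20 reads on each side, the D share of the UTR and that of the rest had a Pearson r of 0.478 and a Spearman rho of 0.383, and across 923 genes without SNPs of under 1% of one allele they had 0.345 and 0.388. These describe genes of the same libraries, which are not independent replicates.

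The ratio of the 5' UTR was then set against that of the rest of the gene, as the log2 D to B ratio at 5' UTR SNPs minus that at the other exonic SNPs. Of 1167 genes with at least 10 reads on each side, 209 passed (17.9%, all genes tested being genes with a 5' UTR SNP), 154 (13.2%) with the lower and 55 (4.71%) with the higher D to B ratio in the UTR. The median difference was -0.06, with quartiles of -0.67 and 0.39, and 573 genes lay within 0.5 on the log2 scale. In 342 genes (29.3%) the D shares of the 4 pools in the UTR did not overlap those in the rest. A B-only SNP lay in the UTR of 91 of the 154 lower genes and in the rest of 23 of the 55 higher genes. After SNPs of under 1% of one allele had been left out, 77 of 1048 genes passed (7.35%), 47 lower (4.48%) and 30 higher (2.86%), and pools did not overlap in 238 (22.7%). Fits with the pool as a block called 303 genes (26%) and 165 (15.7%) respectively.

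**Figure D3:**
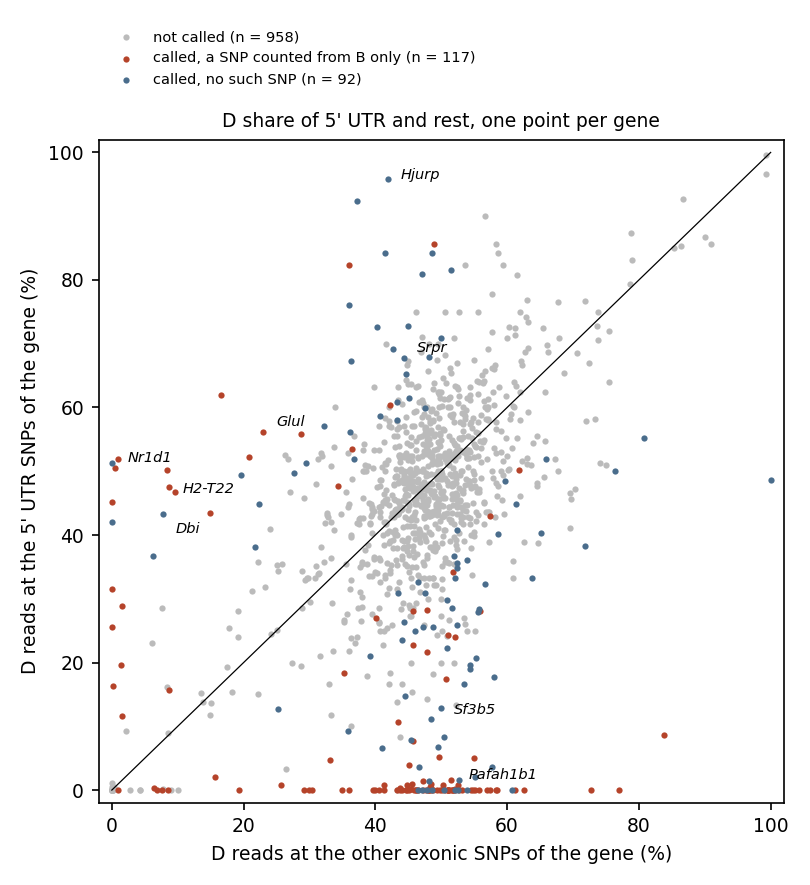
D reads at the 5' UTR SNPs of a gene (y axis, percent) against D reads at its other exonic SNPs (x axis, percent), summed over the 4 pools, with 1 point for each of the 1167 genes. The line marks equal shares, colours separate genes that passed the test with and without a B-only SNP, and the row of points at the bottom edge holds UTRs without D reads.

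The 10 genes with the lowest UTR ratio all had a UTR read from B only. Mlec, a lectin of the endoplasmic reticulum, had 201, 222, 202 and 234 B reads and no D read in its UTR, against 4084 B and 4065 D reads in the rest. Taking the limit of 3 counts for the summed D reads, the ratio was at least 285-fold lower than in the rest. By the same limit it was at least 196-fold lower in Rrbp1, a ribosome-binding membrane protein (858 B and 0 D reads against 25874 and 17705), at least 156-fold in Dgcr2 (545 and 0 against 49 and 42) and at least 100-fold in the zinc finger gene Zfp180 (727 and 0 against 659 and 272).

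The limit was 89.2-fold for Ap1m1, a subunit of a clathrin adaptor (288 and 0 against 455 and 423), 73.7-fold for 3110001I20Rik (209 and 0 against 4556 and 4818) and 69.1-fold for the inositol phosphate kinase gene Itpk1 (154 and 0 against 133 and 179). Fkbp8, a prolyl isomerase, and 2810422J05Rik were counted at 1 and the same UTR SNP (chr8:73051722, 315 B and 0 D reads), with limits of 89.1-fold and 112-fold. Pafah1b1 had 3 D reads beside 1402 B reads, against 1973 and 2149 in the rest (log2 -8.77, SE 0.37, adjusted p = 1.77e-12). Each of these UTR values rests on 1 SNP, except in Zfp180, where it rests on 2.

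Of the 10 genes with the highest UTR ratio, 9 had a B-only SNP in the rest and not a D-rich UTR. Nr1d1, the nuclear receptor Rev-erb alpha, had near-even UTR reads of 549, 263, 396 and 257 B and 554, 268, 405 and 265 D, and its only other SNP had 698 B and 3 D reads (log2 7.68, SE 0.53, adjusted p = 1.12e-09). Mib2, a ubiquitin ligase of the Notch pathway, had 207 B and 224 D reads in the UTR and 551 and 5 in the rest. Sap30bp had 32 and 11 against 1474 and 0, at least 169-fold higher in the UTR, and the splicing factor gene Prpf38a had 17 and 14 against 54 and 0, at least 14.8-fold higher. In Arl4a, a small GTPase, the UTR had 1676 B and 328 D reads and the 9 other SNPs, all B-only, had 4874 and 9.

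The direction of 2 of these genes, Acaa1a and BC003331, was lost with the B-only SNPs left out. In Nr1d1, Mib2, Prpf38a, Sap30bp and Arl4a every SNP of the rest was B-only. Their direction without B-only SNPs could therefore not be tested. H2-T22, 2810021B07Rik and Hjurp kept the higher ratio in the UTR. Acaa1a, the peroxisomal thiolase, had 50.2% D reads in the UTR and 8.39% in the rest, where 1 of 3 SNPs was B-only, and the log2 difference of 3.45 became -0.12 without it. For BC003331 the difference of 4.08 became -0.52. H2-T22, a class I histocompatibility gene, had 47.6% D reads in the UTR (pools 48.8, 42.9, 56.6 and 45.5%) and 8.67% in the rest (log2 3.24, SE 0.38, adjusted p = 1.24e-06), and 17.05% in the rest without B-only SNPs (log2 2.14, adjusted p = 0.00155). For 2810021B07Rik, with 28.8% D reads in the UTR and 1.48% in the rest, SNPs at least 50 bases apart gave -1.81.

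Hjurp, the chaperone of the centromeric histone, was the 1 gene among these 10 with a D-rich UTR and no B-only SNP. At the UTR SNP, 6 bases before the start codon, it had 8, 5, 3 and 2 B reads and 123, 101, 134 and 50 D reads, and its D share lay between 93.9 and 97.8%. The rest of the gene had 232, 244, 158 and 123 B and 192, 146, 109 and 99 D reads, or 37.4 to 45.3% D. The pools did not overlap (log2 4.92, SE 0.40, adjusted p = 9.54e-09). The 4 other SNPs with at least 20 reads ranged from 7.83 to 82.9% D reads, so the D share varied along the gene outside the UTR as well.

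Further genes that differed between UTR and rest were chosen after their values were seen. In Eif5b and Hnrnpab few of the UTR reads carried the D base, and the others had reads of both alleles on each side. In Glul the UTR had 55.2, 58.0, 55.4 and 56.0% D reads and the rest 23.6, 23.8, 20.9 and 23.6%. The UTR was higher by 2.10 on the log2 scale (SE 0.25, adjusted p = 1.63e-06). One 3' UTR SNP of Glul had 13578 B and 1 D reads. Without it the rest had 31.4 to 32.3% D reads and the difference was 1.44 (SE 0.25, adjusted p = 0.000646). All 12 other SNPs with at least 20 reads lay below the UTR SNP, the highest at 45.2%.

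Srpr, a subunit of the signal recognition particle receptor, had UTR D shares of 69.3, 67.0, 65.9 and 69.0% and shares of 45.3, 45.02, 41.5 and 45.5% in the rest (log2 1.40, SE 0.20, adjusted p = 1.32e-05). Dbi had 45.2, 42.4, 44.1 and 41.9% in the UTR against 5.89, 6.82, 6.88 and 10.02% at a single other SNP (log2 3.17, SE 0.47, adjusted p = 3.04e-05). The tumour suppressor Trp53 had 90 B and 120 D reads in the UTR and 61 and 29 at a single other SNP (log2 1.49, SE 0.40, adjusted p = 0.0104). In all 3 genes every pool had the higher D share in the UTR. The call of Trp53 was lost without the pool labelled BxD male (adjusted p = 0.118) or the pool labelled DxB male (0.061).

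Lower in the UTR were Sf3b5, a splicing factor subunit, with 10.8, 10.8, 15.04 and 14.6% D reads against 48.7, 48.3, 51.7 and 51.1% (log2 -2.73, SE 0.32, adjusted p = 1.39e-06), and the initiation factor Eif5b, with 271 B and 4 D reads against 432 and 401 (log2 -5.82, SE 0.48, adjusted p = 1.13e-08). Slc44a3, a choline transporter-like gene with 5 UTR SNPs in the comparison, had 11.02 to 14.6% D in the UTR and 22.5 to 29.1% in the rest (log2 -1.21, SE 0.26, adjusted p = 0.00163). Cnn3, an actin-binding calponin, had 38.3% against 71.9% (log2 -2.03, SE 0.31, adjusted p = 4.06e-05), and the transcription factor Klf13 44.9% against 61.3% (log2 -0.97, SE 0.29, adjusted p = 0.023). The other SNPs of Cnn3 with at least 20 reads ranged from 20% to 98.2% D and those of Slc44a3 from 8.78 to 39.4%, so the UTR shares lay within the range of single SNPs of the rest. Klf13 had 1 other SNP with at least 20 reads. The call of Klf13 was lost without the pool labelled DxB female (adjusted p = 0.0633) or the pool labelled DxB male (0.109), and with SNPs at least 50 bases apart (0.064). The UTR of Hnrnpab, at a B-only SNP, had 1379 B and 7 D reads against 158 and 148 (log2 -7.43, SE 0.44).

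**Figure D4:**
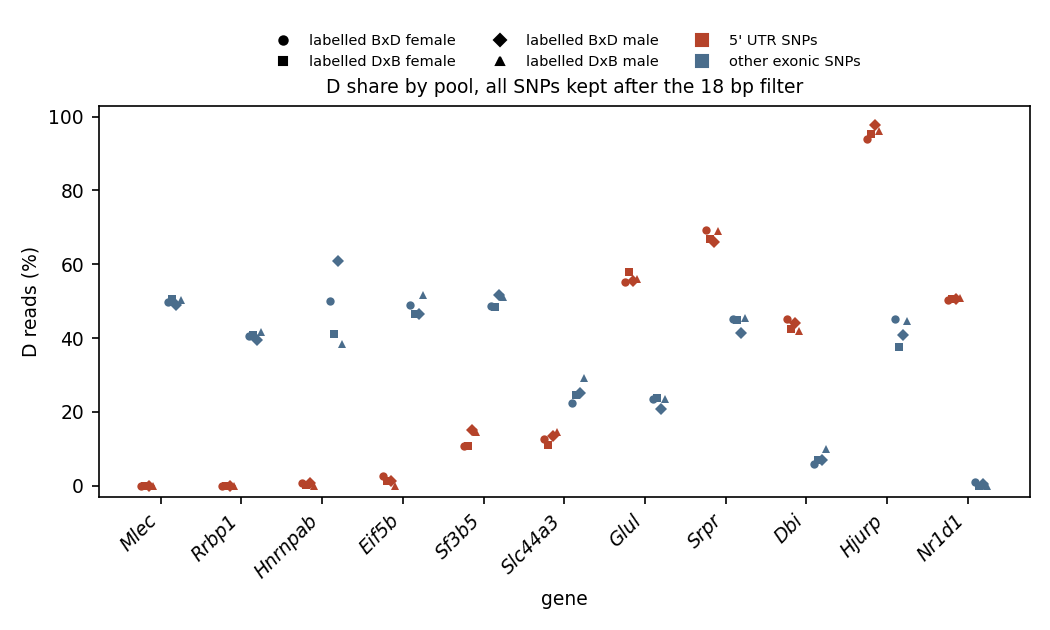
Share of D reads (y axis, percent) in each of the 4 pools (symbols) at the 5' UTR SNPs and at the other exonic SNPs (colours) of 11 genes (x axis) named in the text. In each gene the 4 UTR values lie apart from the 4 values of the rest, and the UTR is lower from Mlec to Slc44a3 and higher from Glul to Nr1d1.

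Where a gene held a B-only and an even SNP in its UTR, the call rested on the former. Ivns1abp was lower in the UTR by 1.22 (adjusted p = 0.000721) with all SNPs and by 0.15 (adjusted p = 0.848) without B-only ones. Klf4 went from -1.12 (adjusted p = 0.000216) to 0.38 (adjusted p = 0.409).

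Several highly read genes did not pass the comparison. In Lpl the UTR had 58.3, 55.8, 52.3 and 54.5% D reads and the rest 58.7, 57.4, 54.3 and 55.6% (log2 -0.09, SE 0.36, adjusted p = 0.928). Angptl4 had 48.4% against 47.4% (log2 0.05, SE 0.26, adjusted p = 0.958), and Wisp2 68.6% against 70.6% (log2 -0.13, SE 0.33, adjusted p = 0.89). The pools overlapped in each of the 3 genes.

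For 4 others the call depended on the pool being in the model. Dgat2, the last enzyme of triglyceride synthesis, had 59.9, 60.3, 53.4 and 56.2% D reads in the UTR and 52.8, 50.9, 47.1 and 52.2% in the rest (log2 0.36, SE 0.60, adjusted p = 0.817, 0.00639 with the block). Adrb3, the beta-3 adrenergic receptor, had 54.3% over 5 UTR SNPs and 48.1% in the rest (log2 0.35, SE 0.60, adjusted p = 0.818, 0.00504 with the block). Atf4 had 62.1% against 49.7% (log2 0.71, SE 0.27, adjusted p = 0.0757, 0.000561 with the block), and Mrap 26.4% against 35.2% (log2 -0.60, SE 0.33, adjusted p = 0.273, 0.00117 with the block). In all 4 genes the pools did not overlap.

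Genes were also grouped by function. Of 11 UTR SNPs in adipocyte and lipid genes, 2 were called for strain, against 20.1% of all 5' UTR and 13.6% of all exonic SNPs, and both were B-only: Srebf2, a regulator of sterol synthesis (354 B and 0 D reads), and Fabp5, a fatty acid binding protein (69 and 0). The other 9 included Lpl, Angptl4, Dgat2, the glucose transporter Slc2a4 (63 and 67 at one SNP, 27 and 25 at another) and the pyruvate carboxylase gene Pcx (2208 and 2327). The median D share over the 10 SNPs with at least 20 reads was 51.4%, against 45.2% over all 5' UTR SNPs of that depth. In the comparison with the rest, 1 of 7 genes passed, against 17.9% of all genes tested, namely Pcx, whose rest had only 16 B and 0 D reads (adjusted p = 0.0231, but 0.0924 without the pool labelled DxB female and 0.174 without the pool labelled BxD male).

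In insulin and growth factor signalling, 4 of 11 UTR SNPs were called, against 20.1% of all 5' UTR and 13.6% of all exonic SNPs. All 4 were B-only, in the kinase Akt1 (353 and 0), the GTPase Rheb (534 and 0) and the receptor Igf2r, at a pair of SNPs 3 bases apart (185 and 0 at each). The 5 UTR SNPs of Adrb3 had 49.7 to 57.0% D reads, and none was called without the block. With the rest of the gene as reference 1 of 4 genes passed, Tsc2, an inhibitor of growth signalling through Rheb, with 30 B and 10 D reads in the UTR against 4833 and 4113 (log2 -1.31, SE 0.36, adjusted p = 0.037). This call was lost when any 1 of the 4 pools was left out, with adjusted p from 0.0575 to 0.174, and with DESeq2 (0.079).

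The list of ribosomal proteins and translation factors had 13 UTR SNPs, 7 with at least 20 reads. This list had 5 called, all with B higher and 3 of them B-only, against 535 of 3245 5' UTR SNPs and 9.52% of all exonic SNPs called with B higher. Its 3 genes in the comparison with the rest were Rpl29 and the kinases Rps6ka1 and Rps6ka5, and all passed with the lower ratio in the UTR, Rpl29 at an adjusted p of 0.0461, which became 0.0776 with DESeq2, 0.222 without the pool labelled BxD female, 0.224 without the one labelled BxD male and 0.111 without the one labelled DxB female. Matching by symbol put both kinases, which are no ribosomal proteins, into this list, and they held the 3 B-only SNPs (55 and 0, 69 and 0, and 67 and 0). Rpl29 had 48 B and 1 D reads (log2 -4.94, SE 0.77, adjusted p = 1.46e-06). The SNPs of Rpl18 (21 and 26 reads at one, 10 and 20 at another) were not called.

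Messages known for upstream reading frames had 16 UTR SNPs, of which 8 were called. With B higher were 6 and with D higher 2, against 535 and 116 of 3245 5' UTR SNPs and 9.52 and 4.11% of all exonic SNPs. The 2 were in Atf4, 8 bases apart, with 311 B and 509 D reads (log2 0.80, SE 0.21, adjusted p = 0.00475) and 372 and 671 (log2 0.95, SE 0.21, adjusted p = 0.000564). Across the pools the second had 100, 75, 125 and 72 B and 186, 135, 233 and 117 D reads, D being higher in each. Klf9, a transcription factor that rises in adipocyte differentiation, had 5 SNPs, all called with B higher, at 430 and 242, 252 and 0, 311 and 61, 380 and 203, and 395 and 240 B and D reads. Without the pool labelled DxB female 3 of these calls were lost (adjusted p from 0.0853 to 0.218), and without the pool labelled DxB male 2 of them (0.0547 and 0.165). Klf4 had 1 B-only SNP (321 and 0) and 1 even one (169 and 188). Atf5 (1097 and 963) and the cell cycle inhibitor gene Cdkn1b (68 and 55) were not called. Of 5 genes compared with the rest, 2 were lower, Klf4 and Klf9 (log2 -0.86, adjusted p = 0.0253), and 0 of 5 passed without B-only SNPs by edgeR, where Klf9 had an adjusted p of 0.266, and 0.0104 with the block. With all SNPs Klf9 lost the call without the pool labelled BxD female (0.0666), DxB female (0.132) or BxD male (0.104).

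The iron responsive element list was represented by ferroportin, Slc40a1, whose 2 UTR SNPs had 81 B and 75 D, and 42 and 37 reads. Neither was called, and the UTR had 47.7% D reads against 40.7% in the rest (log2 0.41, SE 0.42, adjusted p = 0.648). In the mitochondrial respiration list 3 of 5 SNPs were called, against 20.1% of all 5' UTR and 13.6% of all exonic SNPs. The ATP synthase subunit gene Atp5g1 had more D reads at both of its SNPs (21 and 69, 24 and 74), Cox7a2l had 51 B and 0 D reads, and Ndufa3 (228 and 215) and Cox7c (219 and 185) were not called.

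Markers of the tissue were checked over all exonic reads. Only reads at SNPs were counted, so these values depend on which markers held SNPs and are no measure of cell content. Such reads were found for 5 of 12 listed adipocyte, 3 of 12 macrophage and 1 of 6 muscle markers. Adipocyte markers held 8.74% of exonic reads, macrophage markers 0.0466%, and fibroblast and progenitor markers between 25594 and 34876 reads per pool. T and B cell markers had 18 to 100 reads per pool, endothelial ones 790 to 1241, mesothelial ones 84 to 532, epididymal or uterine epithelium ones 11 to 329, muscle ones 0 to 81 and red cell ones 1943 to 4455. Few markers had a UTR SNP. The 3 SNPs of Wt1, a mesothelial gene, were B-only (71, 67 and 60 B reads and no D read). The 2 of Hbb-b1, a globin gene of red cells, pointed in opposite directions, with 216 B and 414 D reads at one and 137 and 57 at the other. The 2 of Pi16, a fibroblast progenitor gene, had 7 and 18, and 60 and 78 reads, and the 1 of Lck, a T cell kinase, had 15 and 9, none of them called.

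The D base created an ATG upstream of the annotated start codon at 57 of the SNPs placed in a 5' UTR and removed one at 52. Of the gains, 12 were called for strain (21.1%), 11 with B and 1 with D higher and 7 of them B-only, and of the losses 4 (7.69%), all with B higher and 3 of them B-only. Among the 2921 SNPs that did neither, 610 (20.9%) were called. Without SNPs of under 1% of one allele the median D share was 45.7% for 25 gains, 46.2% for 27 losses and 48.0% for 1557 others with at least 20 reads. The created frames ended before the start codon in 44 cases, overlapped the coding region in 8 and were in frame with it in 5. For the removed ones the counts were 44, 7 and 1.

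At several deeply read sites of this kind the D allele was present beside B, but not at all of them. The gain in Pafah1b1 had 1402 B and 3 D reads. The ATG gained in Adrb3, in the sequence above, had 110, 408, 82 and 220 B and 160, 538, 150 and 215 D reads. D was higher in the first 3 pools and B in the fourth (log2 0.46, SE 0.31, adjusted p = 0.42, 8.71e-07 with the block). The ATG lost in 2010209O12Rik had 70, 76, 90 and 77 B and 86, 101, 117 and 91 D reads, D being higher in every pool (adjusted p = 0.183, 0.00324 with the block). At the gains that overlap the coding region, H2-T22 had 339 B and 308 D reads and Ring1, a Polycomb ubiquitin ligase, 282 and 218, with adjusted p of 0.951 and 0.556.

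The called gains with both alleles present were few. Coro1c, an actin-binding coronin, had 37, 41, 41 and 27 B and 13, 8, 8 and 4 D reads (log2 -2.04, SE 0.30, adjusted p = 4.39e-07), and its UTR lay below the rest, at 18.4% against 35.2% D reads (log2 -1.27, SE 0.25, adjusted p = 0.000781). The 6 other SNPs of Coro1c with at least 20 reads ranged from 0.365 to 65.5% D, so the UTR share lay within their range. One of them was B-only, and without it the rest had 41.0% D reads. Lrtomt was the gain with D higher, at 16, 6, 12 and 7 B and 37, 34, 20 and 25 D reads (log2 1.60, SE 0.31, adjusted p = 7.51e-05), while its other UTR SNP had 39 and 26. The gain in 4833420G17Rik had 106 and 27 reads, and 9 of the 10 UTR SNPs of that gene were called with B higher.

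SNPs in the UTR of 1 gene did not always give 1 ratio. In 414 genes with at least 2 UTR SNPs of 20 reads or more, the D shares within a gene spanned a median of 6.22 points. In 45 genes all such SNPs were B-only and in 36 some were. Among 332 of the genes without a B-only SNP the median span was 6.81 points, and 36 spanned over 25 points. Gbp2, an interferon-induced GTPase, had 2.25 and 65.9% D reads at SNPs 23 bases apart. Clpx, a mitochondrial protease subunit, ranged from 1.20 to 59.3%, the proteoglycan gene Sdc2 from 37.6 to 85.8% over 5 SNPs, and Trim17 reached 71.2% and spanned 51.2 points over 10 SNPs. Enc1, encoding an actin-binding kelch protein, had 24.3 to 28.0% at 4 SNPs.

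Parent of origin was tested from the labelled crosses. No 5' UTR SNP passed with edgeR (0% of 50891 SNPs, 27 UTR SNPs at an unadjusted p under 0.05) or with DESeq2 (5 at an unadjusted p under 0.05). With cross and sex taken from the file names 1 of 3245 UTR SNPs passed, against 15 of all 50891 SNPs (0.0295%), in Plagl1, an imprinted zinc finger gene expressed from the paternal allele, with a maternal to paternal log2 ratio of -5.26 (SE 0.65, adjusted p = 0.0283), and 0 passed when the pool was added as a block (10 at an unadjusted p under 0.05).

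The D to B ratio differed between the labelled sexes at 3 of 3245 UTR SNPs (0.0924%), against 0.0531% of all SNPs tested, all in genes known to be imprinted. Plagl1 had 3, 5, 69 and 49 B and 165, 194, 4 and 0 D reads, and Snrpn 0, 1, 26 and 30 B and 4, 7, 0 and 0 D reads. H13, a signal peptide peptidase, had 320, 273, 117 and 100 B and 109, 123, 358 and 272 D reads. In all 3 genes the pools labelled female stood on one side and those labelled male on the other. With the file names 0 UTR SNPs differed between sexes by edgeR (against 0.00196% of all SNPs, with 65 UTR SNPs at an unadjusted p under 0.05). By the file names these pairs of pools differ by cross and each holds both sexes. The rest of Plagl1 had 81.4, 80.5, 3.26 and 0.333% D reads and that of H13 32.3, 36.5, 59.8 and 58.1%, which stood on the same sides as the UTR.

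Against 535 of 3245 5' UTR SNPs and 9.52% of all exonic SNPs, 5 of the 10 UTR SNPs of the imprinted list were called for strain with B higher. Of these 4 were B-only, in Igf2r and in Nap1l4 (116 and 0, 111 and 0), in every pool, and the fifth was that of Snrpn (57 and 11, adjusted p = 0.0217, but 0.0613 without the pool labelled BxD male, 0.462 without the one labelled DxB male and 0.57 with DESeq2). The 2 SNPs of Gab1 had 284 and 293, and 102 and 108 reads. Of 5 genes of the list compared with the rest, 0 passed.

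**Figure D5:**
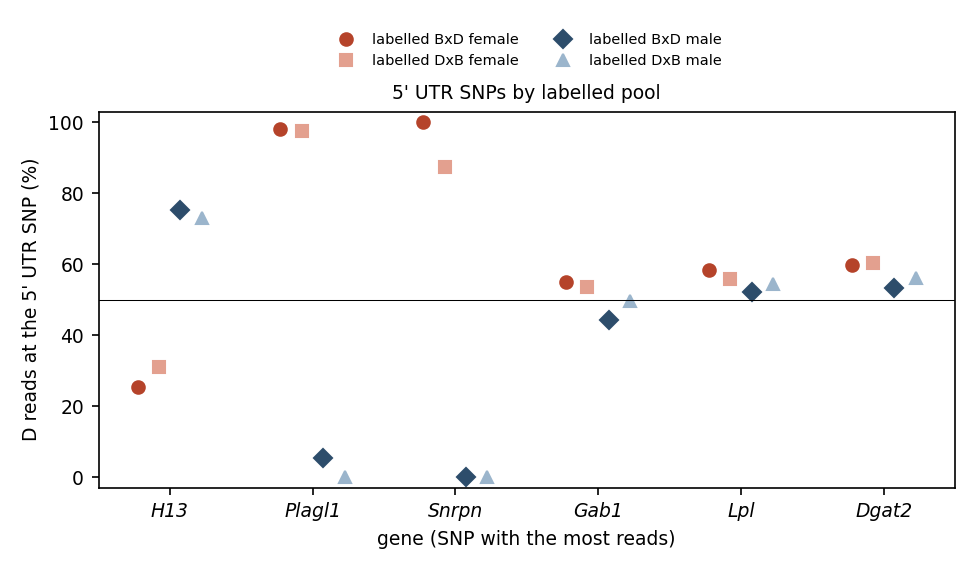
Share of D reads (y axis, percent) in the 4 labelled pools (symbols and colours) at the most deeply read 5' UTR SNP of 4 genes known for imprinting and of Lpl and Dgat2 (x axis). In Plagl1, Snrpn and H13 the pools labelled female and labelled male lie on opposite sides of 50%, and in Gab1, Lpl and Dgat2 the 4 pools lie close together.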

How the data were processed

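The authors deposited raw counts, without normalization, of uniquely mapped reads carrying the B or the D base at each known SNP. Per the study's methods, poly-A RNA was sequenced in pairs, mates were mapped separately as reads of 50 bases, with mrsFAST allowing 3 mismatches to mm9 with D variants masked, and unmapped reads went to TopHat. The submitters' processing notes name CASAVA, TopHat 1 and mm9. A D allele with further differences from mm9 can lose reads in such mapping. Counting a fragment at several SNPs makes them dependent.

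Exonic SNPs of chromosomes 1 to 19 with different bases were used. The B and D counts of 4 pools entered edgeR 4.0.16 (R 4.3.3, TMM, quasi-likelihood test, Benjamini-Hochberg adjustment over all features, threshold 0.05) as 8 libraries. The comparison of UTR and rest used 16 libraries, genes with at least 10 reads on each side, the first SNP of those within 18 bases in an exon, and the interaction of allele and region. B-only means under 1% D reads of at least 20. For fits and sums, SNPs with under 1% of one allele were removed from a depth of 10 reads. Where an allele had no read, 3 counts over the pools were taken as its limit. Scripts were tested on simulated counts.

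Both alleles of a pool come from the same animals. Deviations of the B and D counts from their means correlated within pools at 0.454, 0.334, 0.457 and 0.307 over 22403 SNPs, so fits with the pool as a block are given where they change a call. Alternatives were DESeq2 1.42.0, other count minimums, offsets, SNP filters and references, the file-name identity, and each pool left out in turn.

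The SNPs and the gene lists (adipocyte and lipid, insulin signalling, ribosomal and translation, upstream reading frames, iron responsive element, mitochondrial respiration, imprinted, and cell type markers) were chosen with earlier results of these data known. Genes named by rule were the 10 lowest and 10 highest in UTR against rest among called genes with at least 20 reads on each side, the 10 most deeply read SNPs, upstream ATG changes, list members and the genes with most UTR SNPs; others are said to be chosen after their values were seen. Left out were 33 SNPs listing the same base for both strains and 35 on other chromosomes. Sequences were read with pysam 0.24.0, and tables and figures were made with matplotlib 3.10.9, scipy 1.17.1 and pandas 2.3.3.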

Additional observations from a re-analysis of the deposited data

Results flagged for a closer look

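The D to B ratio at 3 UTR SNPs differed between the labelled sexes by the interaction term of edgeR, with log2 differences of labelled males minus labelled females of 2.87 in H13, -11.16 in Snrpn and -10.26 in Plagl1. With the file names' cross and sex the same differences were 0.03, 0.47 and 0.55, and none passed the test. By the labels the pools on the 2 sides differ by sex, and by the file names they differ by cross. The reading of these genes therefore depends on the identity taken for the 2 pools in conflict. The X chromosome shares given above go against the labels of those 2 pools. Outside the exonic SNPs used here, the tables list 571 5' UTR SNPs that are not placed in an exon, with 24078 reads over the 4 pools.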

How the results depend on the processing

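The 651 UTR SNPs called for strain became 837 with the pool as a block (25.8% of those tested, against 21% of all exonic SNPs), 531 with DESeq2 (16.4 against 10.5%), 619 with at least 10 reads (25.7 against 16.8%), 658 with 1 library size per pool (20.3 against 13.8%), 236 without SNPs of under 1% of one allele (8.20 against 8.43%), 462 with the block added to that (16.1 against 17%), and 546 to 591 with a pool left out. The 269 genes called without their UTR reads became 605 with the block, 257 to 288 under the other settings, and 182 to 238 with a pool left out. The 209 genes differing between UTR and rest became 77 without SNPs of under 1% of one allele, 83 with DESeq2 as well and 165 with the block as well, 127 with 3' UTR SNPs alone as the rest (747 genes tested), and 163 to 180 with a pool left out. By origin 1 SNP and by sex 0 SNPs were called with the file names, and 0 by sex with the block as well. The excess B share of 3.38 points became 0.151 without SNPs of under 1% of one allele, 2.27 for SNPs without another listed SNP within 50 bases, 2.69 as a median over SNPs, and 3.20 to 3.62 with a pool left out. The pooled excess of B-only SNPs of 10.5 points became 11.5 with at least 100 reads, 11.2 at a limit of 5% D reads, and stayed at 10.5 with each position counted once, and was 10.4 to 10.8 with a pool left out.

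Directions turned in few genes. Without SNPs of under 1% of one allele the UTR difference was -0.12 for Acaa1a, with DESeq2 -0.13 and with the block -0.065, and it was -0.038 with 3' UTR SNPs as the rest. For BC003331 the first 3 values were -0.52, -0.51 and -0.50, and for Klf4, at -1.12 with all SNPs, 0.38, 0.38 and 0.37. It was -1.81 for 2810021B07Rik with SNPs at least 50 bases apart. With the file names the sex difference was 0.47 for Snrpn and 0.55 for Plagl1, and 0.54 and 0.51 with the block, and the parental log2 ratio of Plagl1 was -5.26. The removal of a B-only SNP changed Acaa1a, BC003331 and Klf4 by construction, and for the others the cause was not tested. Of the other values for named genes, 773 of UTR against rest kept direction and side of the threshold, 33 lost and 9 gained a call, as 473 strain values of UTR SNPs kept theirs, 9 lost and 17 gained one, and 2 by sex lost one. The block changed no other call than those printed with it. The fits with removal and block or DESeq2, the block with the file names, and the settings of the B-only share were chosen after seeing the data. At the median of 40 reads per UTR SNP, modest differences between alleles may have been missed, and the detection limit at that depth was not tested.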
